A study of Mus musculus with 8 samples.

Results

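The data described here are the control columns of an RNA sequencing experiment on OT-I cells, CD8+ T cells whose transgenic receptor binds an ovalbumin peptide on H2-Kb. The cells came from OT-I:Rosa26-Cas9 mice on the C57BL/6J background, bred by intercrossing Rag2/OT-I mice with a Rosa26-Cas9 knock-in line, 6 to 12 weeks old and of either sex. CD8+ T cells of spleen and lymph nodes were activated with beads carrying antibodies to CD3 and CD28, expanded in IL-2, IL-7 and IL-15, and given a lentiviral vector with a non-targeting guide (sgNT). Transduced cells were sorted on the CD90.1 reporter of the vector 3 days after transduction, at day 7 from activation. The members were the 4 sgNT samples of 8 in all, and they were chosen by their labels. The deposited table holds them as 2 of its 4 columns, each the authors' sum of 2 mice of 1 of the 2 experiments. Every value below is therefore a summed value with no error between mice, and paired values are given for experiment 1 and then experiment 2. All of these cells carried Cas9 and the vector, received cytokines, and the protocol names no target cells. Untransduced or resting cells were not analysed here.

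The question addressed was what a cultured CD8+ T cell expresses before any metabolic gene is removed, and which member of a gene family supplies each function. Counts were scaled to CPM, so that each column sums to 1e+06. A gene was called on at 1 CPM or more in both columns, off below 1 CPM in both, and split otherwise. Levels of different genes were ordered only as CPM per kilobase (kb) of annotated exon, and a pair was called ordered only where the lower column of the higher gene lay above the higher column of the other. The deposited counts also include reads in introns, which exon length leaves out. An order or ratio per kb can therefore also reflect intron reads, and how much it does was not tested. With 2 summed columns no test between them was made, and the smallest counts set a floor: a count of 0 allows a level of up to 0.0472 and 0.0611 CPM (3 counts, counting error only). The columns held 63623476 and 49068952 counts.

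As background, a naive CD8+ T cell that meets antigen and costimulation enters rapid division, switches to glycolysis and biosynthesis, and arms itself with granzymes and perforin. Its identity rests on the CD3 signalling complex, the CD8 coreceptor and a small set of lineage factors of the Runx, T-box and TCF families. Cytokine secretion itself is brief and follows renewed contact with antigen. Many vertebrate gene families hold members used mainly by a single tissue, so that the member in use is a signature of the cell type, while other functions are shared by several paralogs at once.

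The labelled cell type was checked on its markers first. Cd8a, the alpha chain of the CD8 coreceptor, stood at 516 and 743 CPM and Cd8b1, the beta chain, at 476 and 647 CPM. Cd3e, a signalling chain of the receptor complex, stood at 446 and 459 CPM. Gzmb, the serine protease granzyme B that kills target cells, stood at 2487 and 616 CPM. All 4 were on, with count ranks between 32 and 276 among 56805 genes. Per exon length, Cd8b1 (321 and 436 CPM per kb) lay above Cd8a (142 and 204 CPM per kb), and Cd8a above Cd3e (109 and 112 CPM per kb). Gzmb had the widest range of these markers, 1732 and 429 CPM per kb, and was not ordered against Cd8b1. Cd4, the coreceptor of helper T cells, was at 0.0314 and 0 CPM.

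The promoters of these markers are shown because they stand apart from those of most genes in use in the same cells. RefSeq sequence on GRCm38.p6 was taken from 250 bases before the annotated start to 50 bases after it. The sequences are written on the strand of the gene, with CpG dinucleotides in capitals. Cd8b1 had no entry. The window of Gzmb is chr14:56262285-56262584 (minus strand), that of Cd8a chr6:71373177-71373476 (plus strand) and that of Cd3e chr9:45009562-45009861 (minus strand). Slc25a5, the higher of the adenine nucleotide translocases that were on, is shown at chrX:36795347-36795646 (plus strand), and Slc25a31, its germ cell paralog, at chr3:40708621-40708920 (plus strand).
Gzmb: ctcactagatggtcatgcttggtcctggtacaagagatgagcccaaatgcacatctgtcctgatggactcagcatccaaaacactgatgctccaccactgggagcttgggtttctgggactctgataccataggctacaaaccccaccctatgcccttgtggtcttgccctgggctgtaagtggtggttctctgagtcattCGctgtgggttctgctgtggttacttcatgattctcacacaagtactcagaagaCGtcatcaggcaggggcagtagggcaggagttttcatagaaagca
Cd8a: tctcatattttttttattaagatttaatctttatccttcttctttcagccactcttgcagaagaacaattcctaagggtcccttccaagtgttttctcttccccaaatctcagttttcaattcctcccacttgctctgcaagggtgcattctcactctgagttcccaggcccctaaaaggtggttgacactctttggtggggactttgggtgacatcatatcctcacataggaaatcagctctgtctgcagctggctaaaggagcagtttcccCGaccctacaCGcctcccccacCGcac
Cd3e: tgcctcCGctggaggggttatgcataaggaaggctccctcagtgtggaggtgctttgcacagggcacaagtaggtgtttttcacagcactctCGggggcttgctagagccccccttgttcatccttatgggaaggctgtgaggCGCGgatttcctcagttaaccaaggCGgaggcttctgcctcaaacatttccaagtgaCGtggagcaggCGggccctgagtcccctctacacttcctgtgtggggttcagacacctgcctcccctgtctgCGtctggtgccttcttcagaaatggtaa
Slc25a5: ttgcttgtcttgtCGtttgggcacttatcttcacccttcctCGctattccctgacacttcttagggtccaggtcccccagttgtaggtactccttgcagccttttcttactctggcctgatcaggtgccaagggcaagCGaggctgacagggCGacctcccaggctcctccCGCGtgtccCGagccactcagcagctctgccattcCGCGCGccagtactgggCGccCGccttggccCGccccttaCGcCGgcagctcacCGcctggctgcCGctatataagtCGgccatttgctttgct
Slc25a31: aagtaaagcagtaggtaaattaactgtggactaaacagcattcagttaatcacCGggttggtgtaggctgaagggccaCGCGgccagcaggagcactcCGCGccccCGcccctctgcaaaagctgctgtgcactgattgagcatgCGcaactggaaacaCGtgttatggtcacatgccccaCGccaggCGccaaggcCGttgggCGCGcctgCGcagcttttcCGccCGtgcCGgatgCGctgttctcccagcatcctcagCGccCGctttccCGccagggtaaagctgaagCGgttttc

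The window of Gzmb held 2 CpG, that of Cd8a 3 and that of Cd3e 8, against 18 for Slc25a5 and 22 for Slc25a31. The ratio of observed to expected CpG, which corrects for the C and G content of the window, was 0.103 for Gzmb, 0.198 for Cd8a and 0.333 for Cd3e. Of 12757 promoters of protein-coding genes with 1 entry each, 9.26%, 19.1% and 30.3% lay below these values. The ratio was 0.669 for Slc25a5, which was on at 515 and 308 CPM, and 0.826 for Slc25a31, which had no count in either column. A CpG-rich window thus stood before a silent gene as well as before an active paralog.

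Across all genes with such a promoter, the CpG ratio was higher in the classes of genes that were on than in those off or without a count. The median was 0.236 for 4011 genes without a count and 0.447 for 1873 genes that were off with counts. It was 0.708 for 1522 genes that were on with a lower column under 10 CPM, 0.818 for 4122 genes from 10 to 100 CPM and 0.832 for 946 genes at 100 CPM or more. The quartiles of the last class were 0.673 and 0.963, and those of genes without a count 0.109 and 0.486. Read the other way, 10.5% of genes with a ratio under 0.2 were on, and 82.4% of those at 0.8 or more. These are counts over genes, which are not independent replicates, and they have no test.

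**Figure D1:**
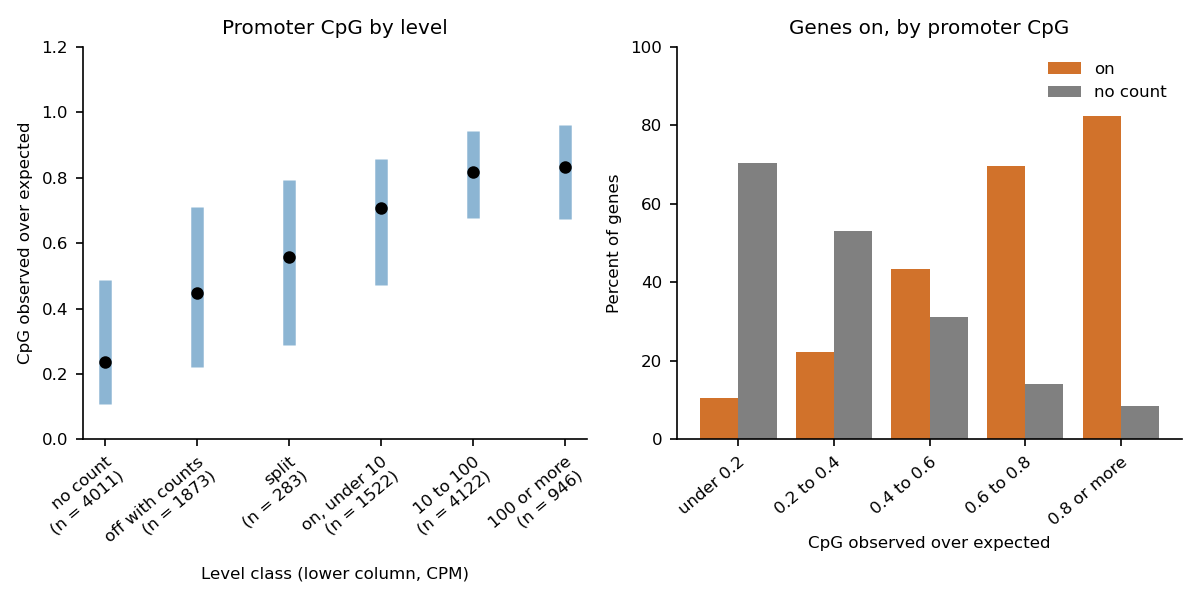
The left panel plots the ratio of observed to expected CpG in promoters against the level class of the gene (points are medians, bars the range between quartiles), and the right panel the percent of genes on or without a count in 5 ranges of that ratio. The median goes from 0.236 for genes without a count to 0.832 for genes at 100 CPM or more, and the percent of genes on goes from 10.5 to 82.4.

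The genes listed for T cell functions did not follow this common pattern in equal measure. A ratio under 0.4 was found in 10.5% of all 6590 on genes with a promoter entry. Among on members of the effector molecule families it was 70.6% (of 17 genes), with Gzmc at 0.119, Xcl1 at 0.193, Prf1 at 0.203 and Ltb at 0.233. It was found in 22 of 44 on surface receptor members, with Il7r at 0.0647 and Ccr2 at 0.0942, and 47.1% of 17 antigen receptor members, with Cd3d at 0.0774 and Lcp2, an adaptor below the receptor, without any CpG. In the families of transcription factors the share was 14.3% of 56, in the cell cycle families 13.8% of 29, in the isozymes of energy metabolism 7.69% of 26 while in those of lipid metabolism it was 1 of 20. Low-CpG windows were thus more frequent before on members of the effector, surface receptor and antigen receptor families than among all on genes, while the share for transcription factors was near that of all on genes. The lists are small and differ in how many members have an entry, and no test was made.

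Short motifs were counted on either strand in the same windows. GGGCGG, the core of the GC box bound by Sp factors, was in 70.3% of promoters of genes at 100 CPM or more and in 23.9% of those without a count, against 50.6% of all 12757. CCGGAA, the core of ETS sites, was in 32.0% and 5.73%, against 20.9% of all. Both letter strings contain a CpG, so their shares are not independent of the CpG ratio. TATAAA, the TATA box, ran the other way in classes by CPM, at 8.03% and 21.1%, against 11.8% of all. With classes by CPM per kb the highest class held it in 14.1%, above the share of all promoters. The median GC content was 62.0% at 100 CPM or more and 49.7% without a count. The share of a string without C or G is not independent of that content. On the strand of the gene and starting 40 to 20 bases before the start, TATAAA was in 6.98% of promoters without a count, 0.655% of those from 10 to 100 CPM and 1.80% of those at 100 CPM or more. By CPM per kb the highest class held it there in 3.125%, against 3.24% of all promoters. TGTGGT, the core read by Runx factors, was in 13.2% of promoters at 100 CPM or more and 18.2% without a count, and the Gzmb window held it. CCAAT was in 41.0% and 39.2%, and CACGTG, the E-box of Myc, in 10.5% and 5.44%. A match describes letters in a window and no binding was measured.

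Of 56805 genes in the table, 11701 (20.6%) were on, 1029 were split, 10182 were off with at least 1 count and 33893 had no count. Among 20007 protein-coding genes 51.2% were on and 31.1% had no count. Of 12372 long noncoding genes 5.70% were on, and of 12388 pseudogenes 2.16%. In both columns 8125 genes reached 10 CPM, 1531 reached 100 CPM and 97 reached 1000 CPM. The distribution was steep, with 50% of the counts held by 517 and 465 genes and 90% by 4752 and 4716 genes. The median on gene stood at 27.6 and 26.4 CPM. Of the on genes, 88.1% lay within 2-fold between the columns, and the median absolute log2 difference was 0.41. In the sgElovl1 columns, which share the protocol, 11493 of the 11701 genes were also on.

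**Figure D2:**
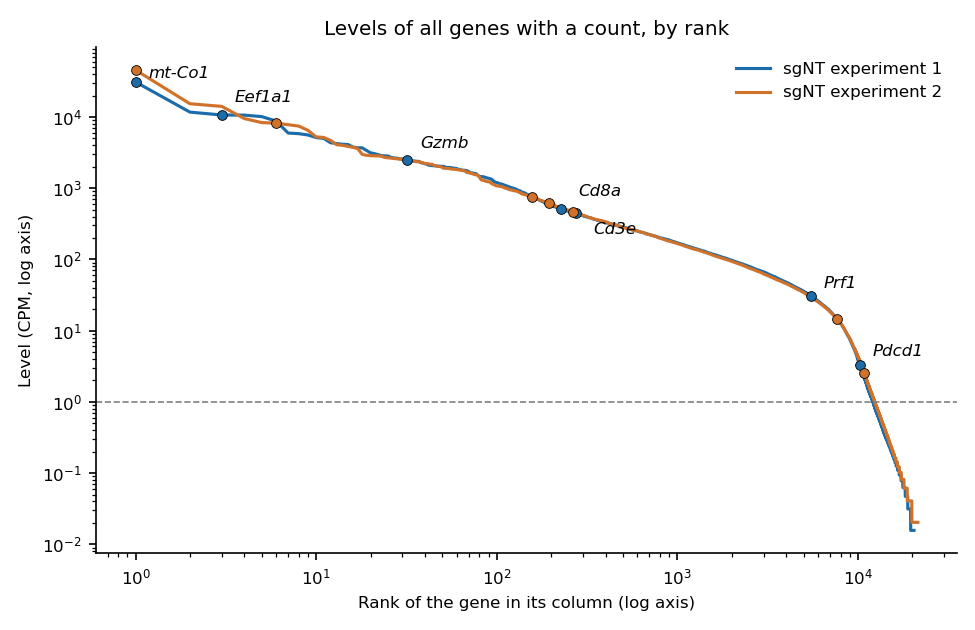
Level in CPM of every gene with a count against its rank in its column, on log axes, with 1 line per sgNT column and points for 7 named genes. The dashed line is the threshold of 1 CPM, and the lines for the columns lie close together over the whole range, with Gzmb at ranks 32 and 195.

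The 20 highest genes of each column held 14.5 and 16.6% of its counts. The 20 genes with the highest mean level belonged to few functions. The genes of the mitochondrial genome for respiratory chain proteins led, with mt-Co1, a cytochrome oxidase subunit, at 31029.9 and 45629 CPM, mt-Cytb at 10615 and 15348 CPM, mt-Nd1 at 11701 and 14088 CPM, mt-Nd2 at 5946 and 7799 CPM, mt-Nd5 at 5012 and 7456 CPM and mt-Nd4 at 3687 and 5253 CPM. The mitochondrial ribosomal RNA mt-Rnr2 was at 5588 and 3999 CPM in these libraries, which were selected for messenger RNA. Translation was the second function, with the elongation factors Eef1a1 at 10660.1 and 8191 CPM and Eef2 at 4231 and 4707 CPM, and the ribosomal proteins Rpsa, Rplp0, Rpl4, Rpl8 and Rpl3, of which Rpsa was highest at 8765 and 9502 CPM. The cytoskeleton was the third, with Actb (beta-actin) at 10119 and 8340.3 CPM, Tmsb4x, which binds free actin, at 5831 and 5157 CPM and its relative Tmsb10 at 4351 and 6503 CPM. The chaperone Hspa8 was at 4140.3 and 3743 CPM, the chaperone Hsp90ab1 at 4108 and 2617 CPM and the glycolytic enzyme Gapdh at 5141 and 2652 CPM. Per kb, mt-Co1, mt-Nd1, mt-Cytb and mt-Nd2 took the first 4 ranks of protein-coding genes in both columns.

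As classes, the 13 protein genes of the mitochondrial genome held 6.82 and 9.59% of the counts and all 13 were on. The 89 genes with symbols of cytosolic ribosomal proteins held 12.9 and 13.4%, with 84 on. The 5 that were off were Rpl3l, Rpl10l, Rpl39l, Rps4l and Rps12l1, whose symbols mark them as copies of another member, and Rpl3l and Rpl10l had no count. Among those on, Rpl24 stood at only 1.04 and 1.75 CPM and Rps10 at 3.73 and 4.71 CPM, although both encode core proteins of the ribosome. In the annotation used for lengths, 98.7% of the gene body of Rpl24 and 76.9% of that of Rps10 lay under another gene of the same strand, where counting over whole genes can leave a read unassigned. The loss at such genes was not tested here. H2-D1, an MHC class I gene that presents peptides on nucleated cells, stood at 1942 and 2539 CPM and H2-K1, which presents the OT-I peptide, at 1643 and 2507 CPM, and they held 0.359 and 0.505% of the counts together.

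At the other end, large families of tissue receptors and secreted proteins had almost no counts. Of 1410 olfactory receptor genes 1376 had no count and 3 were on, the highest being Or6b13 at 3.599 and 1.63 CPM. Of 356 vomeronasal receptor genes 348 had no count, and Vmn2r96 was on at 1.76 and 2.77 CPM. All 43 beta-defensin genes and all 22 genes of major urinary proteins had no count. Of 39 Hox genes, which pattern the body axis, 35 had no count and Hoxb4 was on at 1.35 and 1.24 CPM. Of 160 immunoglobulin kappa variable genes 159 had no count, and of 183 heavy chain variable genes 177 had none. The variable genes of the T cell receptor beta chain showed a single member, since of 35 Trbv genes only Trbv12-1 was on, at 274 and 239 CPM. Of 130 Trav genes 4 were on, with Trav21-dv12 at 2.03 and 3.32 CPM. The Trav14 copies on the donor list reached at most 1.21 and 1.55 CPM, and Trav14d-1, Trav14d-2, Trav14n-1 and Trav14n-2 share every 100-base window with another gene, so that reads from them may be counted under another name or not at all.

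The other donor and vector features are given here because they bear on what the cells were. Thy1, whose CD90.1 form is also the reporter of the vector, was at 1348 and 930.0 CPM, and reads of the vector and of the chromosome cannot be told apart in this table. Rag1 and Rag2, the recombinase genes, had no count, and 100% of the gene body of Rag1 lay under another gene of the same strand. Dntt, which adds nucleotides during receptor assembly, was on at 5.05 and 8.84 CPM.

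The families below were compared member by member. In all, 100 families with 546 members in the table were listed, and 343 members (62.8%) were on, 21 split and 182 off, of which 95 had no count. For reading these shares, 51.2% of all protein-coding genes were on. In 17 families a single member was on (31 at a threshold of 5 CPM and 29 at 1 CPM per kb), and in 29 every member was. Of the 83 families with 2 or more members on, the first exceeded the next by over 10 times per kb in both columns in 12, and by over 2 times in 48. In 6 of the 83 the order of the first 2 members differed between the columns. Of 240 neighbouring pairs of on members, 158 were ordered and the rest were not. These orders and ratios use exon length, while the counts include introns. The families were chosen with earlier results of these data known.

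Reads can be assigned to a paralog only where its sequence is its own. Of 543 members with transcripts in the annotation, 448 shared no window of 100 bases with the transcript of another gene. More than 50% of windows were shared in 8 members, and more than 50% of the gene body lay under another gene of the same strand in 18. Among the 182 members that were off, 4 met either condition, namely Cpt1b, Fabp9, Tnfsf12 and Tnfsf13. For the other off members a low value is not accompanied by these conditions. Among 340 on members, 14 met either condition. Another gene of the same strand covered 100% of the gene bodies of Il2rg and Cox4i1 and 55.95% of that of Tcf7. The levels given below for these genes are uncertain in the same way, and the loss was not tested.

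In the antigen receptor families, 35 of 43 members (81.4%) were on, against 51.2% of all protein-coding genes. The chains that make the receptor complex were ordered per kb as Cd3d (303 and 362 CPM per kb), Cd3g (172 and 190.2), Cd3e (109 and 112) and Cd247, the zeta chain (38.2 and 58.2), with each step larger than the range between the columns. The constant genes Trbc2 (1392 and 1784 CPM per kb), Trbc1 (692 and 1337) and Trac (1136 and 822) lay higher. Trbc1 and Trac were not ordered, and Trbc1 shared 28.2% of its windows with other genes, mostly Trbc2. The constant genes of the gamma-delta receptor were on as well, Trdc at 258 and 338 CPM and Trgc1 at 71.4 and 28.1 CPM. Sox13, a factor of gamma-delta T cells, was split at 2.23 and 0.978 CPM and Zbtb16, a factor of innate-like T cells, off at 0.0314 and 0 CPM.

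Kinases below the receptor differed widely between paralogs. Zap70, the kinase that docks on phosphorylated CD3 chains, stood at 100.5 and 121 CPM per kb, and its relative Syk, the kinase of B cells, at 0.581 and 0.612 CPM per kb, ratios of 173 and 198. Among Src kinases, Lck, which starts signalling from the CD8 coreceptor, was at 270.4 and 277 CPM per kb and Fyn at 58.8 and 71.7 CPM per kb. Fgr (9.43 and 7.91 CPM), Lyn (5.93 and 3.87 CPM) and Yes1 (5.25 and 5.54 CPM) were on at lower levels, Src was off at 0.739 and 0.734 CPM and Blk, the B cell member, off at 0.126 and 0.0204 CPM. Of the Tec kinases, Tec (5.46 and 9.74 CPM per kb) and Txk (5.39 and 8.51) were not ordered, and Btk of B cells had no count. The adaptor Lcp2 (SLP-76) was at 314 and 245 CPM and its B cell counterpart Blnk had no count. Plcg1 (26.6 and 48.03 CPM per kb) lay above Plcg2 (8.396 and 4.93). Prkcq, the protein kinase C of the T cell synapse, led its family at 36.4 and 43.3 CPM per kb, followed by Prkch (17.5 and 25.9).

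Effector molecule families had the smallest share of members on, 26 of 82 (31.7%), against 51.2% of all protein-coding genes. Granzymes were ordered per kb as Gzmb (1732 and 429 CPM per kb), Gzma (401 and 190.4) and Gzmc (65.1 and 26.4), with Gzmk (5.26 and 4.08) and Gzmm (3.27 and 5.75) below and not ordered between themselves. The members of the Gzmc cluster beyond Gzmc were near or below the threshold, Gzmd split at 2.04 and 0.204 CPM, Gzmf off at 0.5501 and 0.224 CPM and Gzme off at 0.503 and 0.0408 CPM, and Gzmn had no count. Prf1, the pore-forming perforin through which granzymes enter a target, was at 11.9 and 5.71 CPM per kb, below Gzma in both columns. Mpeg1, the perforin-2 of macrophages, was at 0 and 0.0611 CPM.

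Among TNF superfamily ligands 10 of 17 were on. Ltb, which with Lta forms the membrane lymphotoxin, led at 191 and 417 CPM per kb. Lta (54.04 and 26.8 CPM per kb), Tnf (28.6 and 11.3) and the death ligand Fasl (23.9 and 14.2) followed and were not ordered among neighbours. Tnfsf10 (TRAIL) was at 20.1 and 23.3 CPM, Cd40lg of helper cells off at 0.849 and 0.428 CPM, and Cd70 and Tnfsf18 had no count.

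Of 22 cytokine genes 6 were on. Tgfb1 (44.1 and 41.3 CPM per kb) and Il16 (26.2 and 35.3), a precursor found in resting lymphocytes, led by level, and Il10 was on at 12.2 and 1.67 CPM. Ifng, the signature cytokine of CD8+ T cells, was split at 1.79 and 0.795 CPM, and 56.2% of its gene body lay under another gene of the same strand in the annotation used for lengths. Il2 was off at 0.0629 and 0.102 CPM and Il4, Il5 and Il13, cytokines of type 2 helper cells, did not pass 0.1100 and 0.0408 CPM. Il3, Il6, Il9, Il12b, Il17a, Il21 and Il22 had no count. Of 31 chemokines 4 were on, Xcl1 at 11.8 and 20.4 CPM, Ccl5 at 7.25 and 29.2 CPM, Ccl4 at 2.405 and 5.26 CPM and Ccl25 at 3.91 and 9.599 CPM, and Ccl3 was split at 0.267 and 1.69 CPM.

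**Figure D3:**
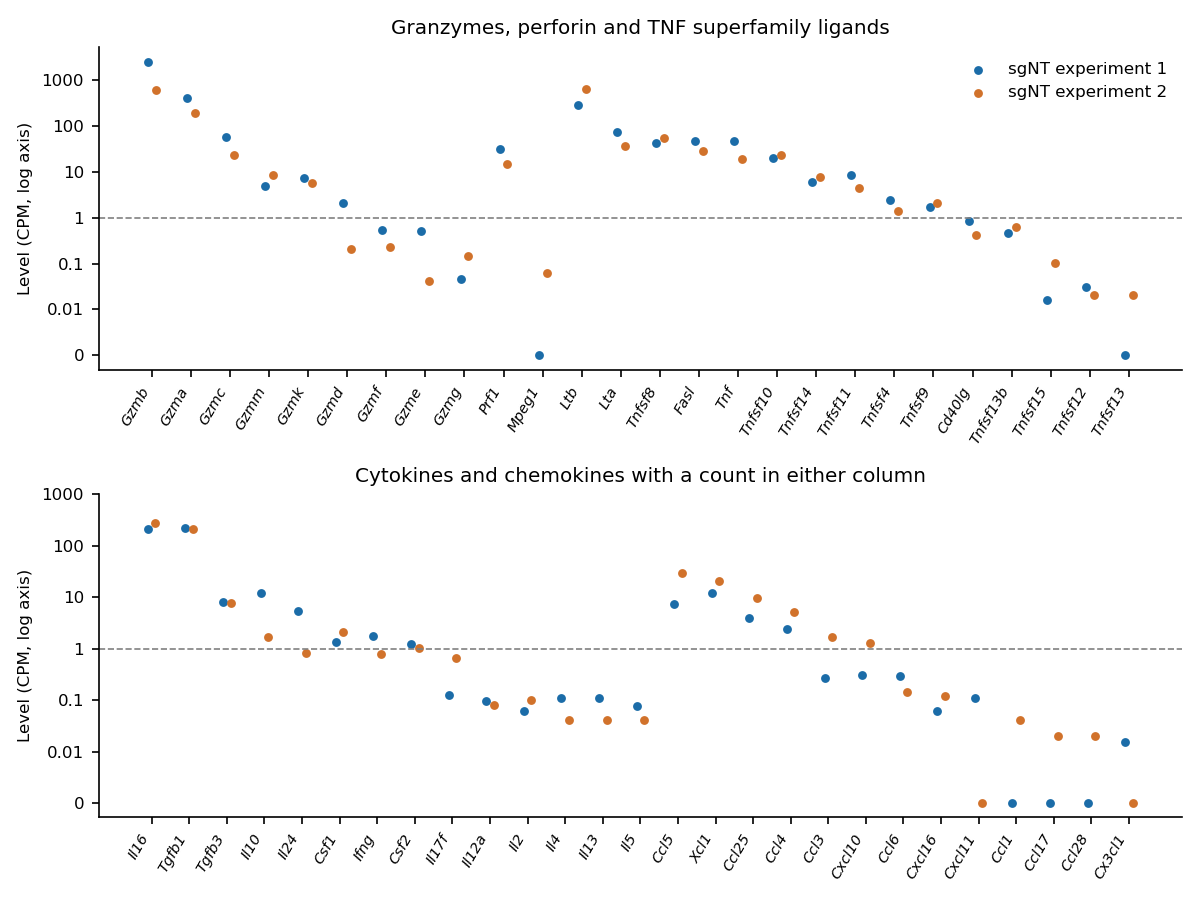
Level in CPM, on a log axis, of each granzyme, perforin family member and TNF superfamily ligand (upper panel) and each cytokine and chemokine (lower panel) that had a count in either sgNT column, with 1 point per column and a value of 0 drawn at the foot. The dashed line is 1 CPM, with Gzmb, Gzma and Ltb above 100 CPM in both columns and Ifng on both sides of the line.

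Surface receptor families had 67 of 102 members on (65.7%), against 51.2% of all protein-coding genes. All members of the CD28 family were on: Ctla4, the inhibitory receptor, at 27.99 and 66.4 CPM per kb, Cd28 at 19.5 and 23.4, Icos at 20.5 and 18.6, Btla at 3.97 and 12.7 and Pdcd1, the gene of PD-1, lowest at 1.73 and 1.299 CPM per kb. In the TNF receptor superfamily Cd27 (51.6 and 129 CPM per kb) lay above Tnfrsf18, which encodes GITR (39.8 and 45.8). Tnfrsf9, which encodes 4-1BB, was at 85.6 and 17.5 CPM per kb, above both in experiment 1 and below both in experiment 2. Tnfrsf4, which encodes OX40, was at 5.202 and 9.97 CPM, Cd40 of antigen-presenting cells off at 0.126 and 0.122 CPM and Ngfr without a count.

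Receptor chains for all 3 cytokines of the culture medium were on, at levels that differed between chains. Il2rg, the shared gamma chain, stood at 173 and 170.4 CPM per kb and Il2rb, the beta chain for IL-2 and IL-15, at 186 and 139.7 CPM per kb, and they were not ordered. Il2ra, the alpha chain, was at 57.7 and 34.7 CPM per kb. Il7r was lower at 4.004 and 8.65 CPM per kb, and Il15ra, the alpha chain for IL-15, lower again at 2.71 and 3.82. Il9r was off at 0 and 0.0204 CPM. Il18r1, Il18rap, Il12rb1 and Il12rb2, the receptors for IL-18 and IL-12, were all on, with Il18r1 at 156 and 316 CPM and Il12rb1 at 103 and 64.5 CPM, whereas Il23r was off at 0.126 and 0 CPM and Ifnlr1 had no count. Ifngr1 (163 and 290.5 CPM per kb) lay above Ifngr2 (2.87 and 3.798).

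Homing receptors mixed those of tissue and of lymph node. Cxcr6 (98.2 and 73.95 CPM per kb), Ccr2 (75.4 and 82.5), Ccr7 (46.9 and 75.3) and Cxcr3 (21.9 and 55.5) were all on, with Cxcr6 and Ccr2 not ordered. Cxcr5 of follicular cells was split at 0.613 and 1.65 CPM, Ccr9 of the gut off at 0 and 0.0408 CPM, and Ccr6 and Cxcr1 had no count. S1pr4 (61.3 and 115 CPM per kb) lay above S1pr1 (17.00 and 43.3), the receptor that guides exit from lymph nodes, and S1pr5 had no count. Of the chains of the integrin LFA-1, Itgal stood at 72.5 and 82.8 CPM per kb and Itgb2 at 83.1 and 97.4 CPM per kb. Itgb7 was the highest beta chain at 233 and 291 CPM per kb, and its partner Itgae was at 25.1 and 30.3 CPM per kb while Itga4, its other partner, was at 0.2597 and 0.983.

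In the families of transcription factors and their regulators 95 of 136 members (69.9%) were on, against 51.2% of all protein-coding genes. Eomes was the highest T-box factor at 61.02 and 37.4 CPM per kb, above Tbx21 (T-bet) at 6.82 and 7.89. Tbx6 was on as well, at 2.47 and 15.4 CPM, and was not ordered against Tbx21 per kb. The 8 T-box genes Tbx1, Tbx3, Tbx4, Tbx5, Tbx15, Tbx18, Tbx20 and Tbx22 had no count. Tcf7, the factor of stem-like and memory T cells, stood at 78.6 and 221 CPM per kb against 7.21 and 13.7 for Lef1, ratios of 10.9 and 16.1, and Tcf7l2 had no count. Runx3, which silences Cd4 in this lineage, led its family at 25.1 and 28.4 CPM per kb, above Runx2 (5.36 and 5.44) and Runx1 (1.44 and 1.23). Gata3 was at 50.8 and 67.8 CPM and Gata1 was on at 4.01 and 2.22 CPM, while Gata2, Gata4, Gata5 and Gata6 had no count. Ikzf1 led the Ikaros factors at 55.3 and 54.5 CPM per kb. Id2 (118 and 67.1 CPM per kb) lay above Id3 (8.74 and 9.24), and Tcf3, the E protein that Id proteins bind, at 46.2 and 63.8 CPM per kb, above Tcf12 (4.54 and 4.35). Zeb1 was on at 31.8 and 27.6 CPM and Zeb2, a factor of terminal effector cells, off at 0.0157 and 0.183 CPM. Tox, linked to exhaustion, stood at 0.739 and 0.509 CPM per kb, below its relative Tox4 at 11.4 and 8.71 CPM per kb, and Tox2 was off at 0 and 0.0408 CPM.

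Some signalling families were on as a whole, among the 29 of 100 listed families with every member on. All 7 Stat genes and all 4 Janus kinases were on, Stat6 leading at 34.7 and 35.8 CPM per kb and Jak1 (70.2 and 109 CPM per kb) and Jak3 (48.8 and 73.5) leading but not ordered between themselves. All 5 NF-kappaB genes were on, led by Rela (27.2 and 27.1 CPM per kb) and Nfkb1 (23.04 and 22.03). All 8 SOCS genes were on, with Cish, a feedback inhibitor induced by cytokine signalling, at 35.00 and 16.1 CPM per kb and not ordered against Socs1 (16.6 and 14.4). By contrast Jund (292 and 349.5 CPM per kb) and Junb (82.8 and 77.8) stood far above Jun (9.22 and 10.6) and Fos (2.37 and 3.06), and among other early response genes, Nr4a1 was at 5.800 and 7.97 CPM, Nr4a3 at 1.68 and 2.06 CPM, Egr1 at 142 and 68.1 CPM, Egr2 at 3.14 and 5.42 CPM and Egr3 off at 0.362 and 0.5502 CPM. Cd69, an early activation antigen, was at 87.5 and 87.4 CPM. Myc, the driver of growth, stood at 49.4 and 36.8 CPM per kb against 2.41 and 1.42 for Mycn, and Mycl was off at 0.141 and 0.163 CPM. Hif1a stood at 30.5 and 30.1 CPM per kb against 0.4499 and 0.448 for Epas1, ratios of 67.9 and 67.05.

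Genes of cell division were high throughout. All 20 proliferation genes were on, against 51.2% of all protein-coding genes, with medians of 317 and 170.4 CPM. Mki67 stood at 1268 and 1289.8 CPM, Top2a at 937 and 765 CPM and Pcna at 449 and 229 CPM. The lowest of the list were Tyms at 106 and 65.8 CPM and Aurka at 82.4 and 56.3 CPM. In the cyclin families Ccnd3 (35.9 and 29.2 CPM per kb) lay above Ccnd2 (18.5 and 13.98) with Ccnd1, the D cyclin of epithelia, off at 0.251 and 0.204 CPM. Ccna2 was on at 295 and 190.5 CPM and Ccna1, of the germ line, off at 0.0629 and 0 CPM, and Ccnb3 had no count. Dnmt1, which copies DNA methylation at replication, led its family at 58.8 and 46.2 CPM per kb, and Dnmt3l had no count. Among actins Actb (3777 and 3113 CPM per kb) lay above Actg1 (948 and 815), and the muscle actins were off, Acta1 at 0.0943 and 0.143 CPM and Acta2 at 0.126 and 0.0204 CPM. Tubb5 led the beta tubulins at 724 and 605 CPM per kb and Tubb1 of platelets had no count. Tuba1b led the alpha tubulins at 635 and 409 CPM per kb, with 62.1% of its windows shared with other genes, so that its level is uncertain. Mcl1 (67.5 and 92.5 CPM per kb) and Bcl2 (35.7 and 24.98) led the survival proteins.

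At 4 steps of glycolysis a single isozyme was on. Gapdh stood at 1244 and 642 CPM per kb, and its sperm form Gapdhs was off at 0.487 and 0.897 CPM. Pgk1, phosphoglycerate kinase, stood at 446 and 141 CPM per kb with 51.7% of its windows shared with other genes, and its testis form Pgk2 had no count. Pgam1, phosphoglycerate mutase, stood at 70.2 and 25.4 CPM per kb, and the muscle form Pgam2 was off at 0.141 and 0.5299 CPM. Pkm, pyruvate kinase, stood at 441 and 201 CPM per kb, and Pklr of liver and red cells had no count. Aldoa (774 and 313 CPM per kb) exceeded Aldoc by 30.5 and 18.2 times per kb. Ldha, which favours lactate, exceeded Ldhb by 790.2 and 347 times per kb, with Ldhb at 1.45 and 1.100 CPM and testis Ldhc without a count. Eno1 (528 and 162 CPM per kb) lay above Eno3, the muscle enolase (24.6 and 26.9).

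The first steps were shared among more members. Slc2a1 (34.2 and 20.1 CPM per kb) and Slc2a3 (12.4 and 8.61) were the main hexose transporters, Slc2a4, the insulin-responsive carrier, was off at 0.0314 and 0 CPM and Slc2a5 had no count. Hk1 (20.2 and 15.99 CPM per kb) lay above Hk2 (9.71 and 2.55). All 3 phosphofructokinases were on, Pfkp at 38.3 and 22.99 CPM per kb, Pfkl at 32.1 and 12.97 and Pfkm at 10.6 and 8.298. The lactate exporters Slc16a3 (28.6 and 9.31 CPM per kb) and Slc16a1 (16.1 and 6.69) were not ordered.

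Members of the families listed for mitochondrial proteins and their regulators differed widely in level. Cox4i1 was on at 325 and 245 CPM per kb and Cox4i2, the lung form, off at 0.5501 and 0 CPM. Cox6a1 exceeded the muscle form Cox6a2, which was on just above the threshold at 1.01 and 1.73 CPM, by 213 and 83.99 times per kb, and Cox8a was on at 214 and 251 CPM per kb with Cox8b and Cox8c without a count. Among the genes listed for cytochrome oxidase subunit 7a, Cox7a2l (162 and 248 CPM per kb) lay above Cox7a2 (139.7 and 76.7). Cox7a1 was split at 1.81 and 0.958 CPM. Which of these genes supplies the subunit was not tested. Slc25a5 (313 and 187 CPM per kb) lay above Slc25a4, the form of heart and muscle (100.2 and 85.4), and both were on. Pdha1 was on at 136 and 116 CPM and the testis gene Pdha2 had no count. Of the PGC-1 coactivators Pprc1 was on at 38.1 and 16.6 CPM, Ppargc1b at 3.05 and 1.304 CPM and Ppargc1a had no count.

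**Figure D4:**
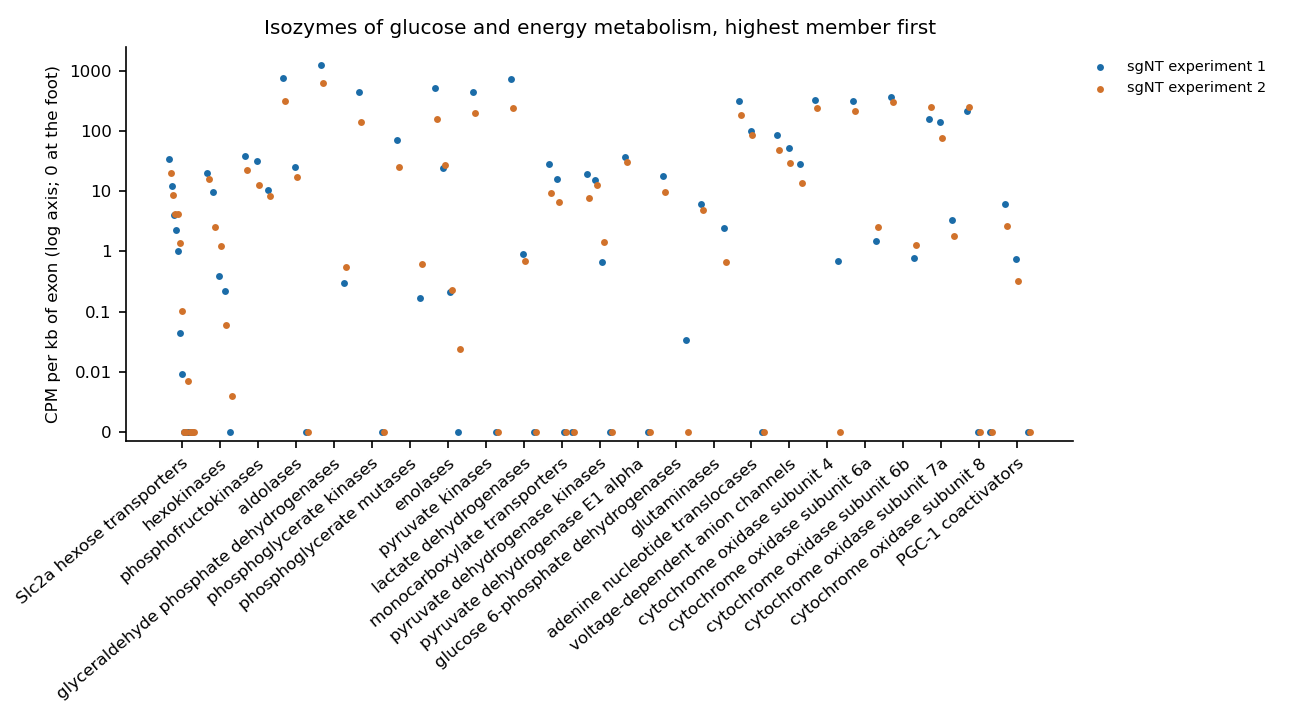
Level in CPM per kb of exon, on a log axis, of each member of 23 families of glucose and energy metabolism, with 1 point per sgNT column and the highest member of each family at its left. A value of 0 is drawn at the foot, and in families such as the pyruvate kinases 1 member stands above 100 CPM per kb with the other at 0.

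Lipid families had 34 of 52 members on (65.4%), against 51.2% of all protein-coding genes, and in 8 of 14 families every member was. Elovl1, the elongase targeted in the other group of the study, was on at 40.3 and 34.9 CPM per kb beside Elovl5 (47.02 and 50.7), Elovl6 (16.6 and 12.9) and Elovl7 (2.11 and 2.803), with Elovl4 off at 0.0314 and 0.0408 CPM and Elovl2 and Elovl3 without a count. Cers2, the ceramide synthase for very long chains, led its family at 27.7 and 27.1 CPM per kb, and Cers3 of skin was off at 0.126 and 0 CPM. Scd2 (186 and 164 CPM per kb) lay above Scd1 (35.8 and 15.7). Acaca (5.604 and 3.58 CPM per kb) lay above Acacb (0.212 and 0.294), the carboxylase tied to fat oxidation. Cpt1a was the single carnitine palmitoyltransferase 1 on, at 52.7 and 63.5 CPM, although Cpt1b (0.283 and 0.591 CPM) shared 75.6% of its windows with another gene. Fabp5 was the single fatty acid binding protein on, at 58.7 and 14.1 CPM, Fabp3 was off at 0 and 0.0815 CPM and 6 others had no count. Both SREBP genes were on with their order changed between columns, Srebf2 at 42.3 and 49.04 and Srebf1 at 36.7 and 49.1 CPM per kb. Ppard was on at 34.9 and 22.3 CPM, with Pparg off at 0.409 and 0.0408 CPM and Ppara off at 0 and 0.0204 CPM.

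Genes of cell states were read together. All 15 genes of resting and memory cells were on (medians 85.6 and 149 CPM), with Tcf7 at 78.6 and 221 and Ly6c2 at 92.5 and 105 CPM per kb among the highest per kb, and Bach2 at 1.49 and 3.24 and Slamf6 at 2.27 and 7.24 CPM per kb among the lowest. Satb1 was at 376 and 615 CPM. Of 16 activation and effector genes 13 were on (medians 71.01 and 73.02 CPM), with Nkg7, a protein of cytotoxic granules, at 838 and 547 CPM per kb above Mki67 (126 and 128) and Id2 (118 and 67.1), while Klrg1, a receptor of terminal effector cells, was off at 0.0943 and 0.0815 CPM and Zeb2 was off. Of 11 exhaustion genes 10 were on (medians 22.1 and 21.8 CPM). Eomes, Ctla4, Tigit, Cd160 and Lag3 were the highest per kb, with Cd160 at 36.3 and 21.02 and Lag3 at 27.5 and 22.3. Pdcd1 was at 3.35 and 2.51 CPM and Havcr2, the gene of TIM-3, at 10.5 and 3.53 CPM. For comparison the medians over all on genes were 27.6 and 26.4 CPM, and 20.6% of all genes and 51.2% of protein-coding genes were on. In summed bulk RNA, genes of different states cannot be assigned to the same or to different cells.

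Of 67 markers of other cell types 14 were on (20.9%), 3 split and 50 off, and 23 had no count. The number on was 9 at a threshold of 5 CPM and 8 at 1 CPM per kb. For reading this share, 20.6% of all genes and 51.2% of protein-coding genes were on. None of the 6 neutrophil markers, 6 dendritic cell markers or 7 erythroid markers was on, and S100a8, S100a9 and both beta-globin genes Hbb-bs and Hbb-bt had no count. Hbb-bs shared 49.7% of its windows with other genes and Hbb-bt 54.8%. Lyz2, Cd14 and Adgre1 of macrophages did not pass 0 and 0.0204 CPM, while Cd68 was at 8.33 and 10.1 CPM. Pecam1 was on at 24.6 and 49.8 CPM with Cdh5 of endothelium without a count, Cdh1 at 21.5 and 10.9 CPM with Epcam off at 0.943 and 0.754 CPM, and Itga2b at 3.68 and 11.3 CPM with Pf4 of platelets without a count.

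Of 9 B cell markers 3 were on, with summed levels of 406 and 763 CPM, nearly all of it from Ighm, the heavy chain constant gene, at 394 and 742 CPM. Cd79b was at 7.199 and 9.09 CPM and Ighd at 3.599 and 10.9 CPM, while Cd79a was at 0.1100 and 0.408 CPM, and Pax5 and Ms4a1 had no count. Ncr1 of natural killer cells had no count, Klre1 was on at 2.12 and 2.099 CPM and Klrb1c at 1.51 and 1.79 CPM. Zbtb7b, the factor of the CD4 lineage, was on at 25.4 and 27.4 CPM and Foxp3, of regulatory T cells, at 4.26 and 8.82 CPM, with Cd4 and Cd40lg off. Whether other cells contributed to these values was not tested. In summed bulk RNA, fewer cells of a type and less RNA per cell cannot be told apart.

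**Figure D5:**
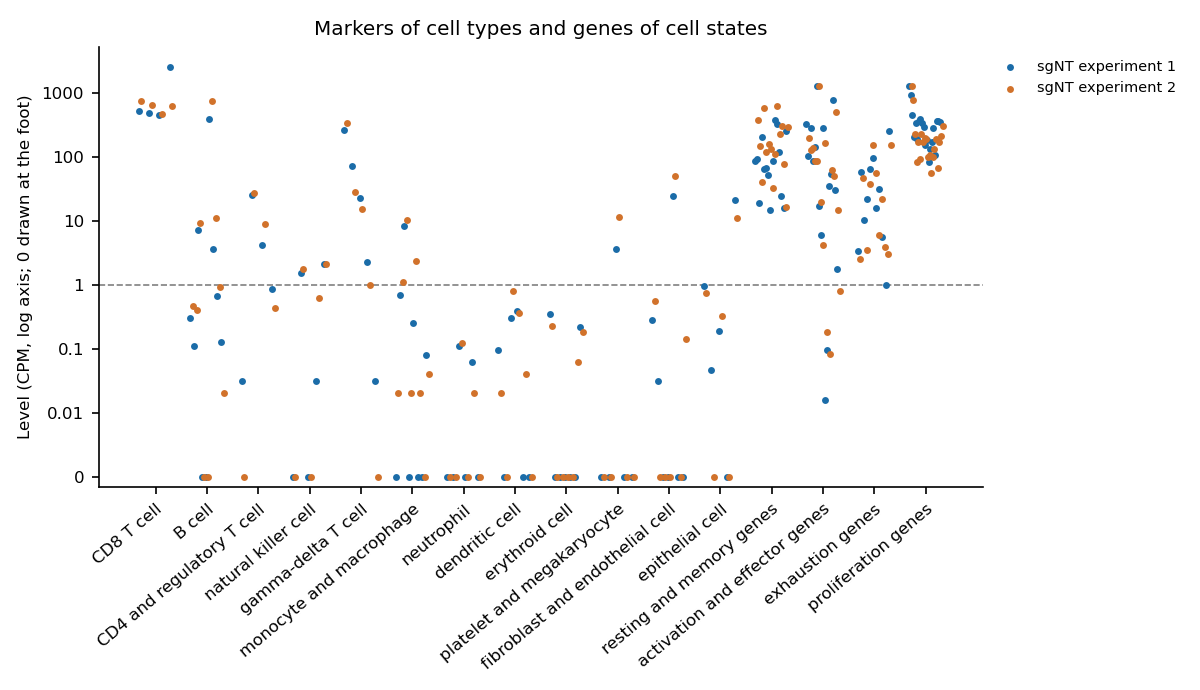
Level in CPM, on a log axis, of each marker of 12 cell types and each gene of 4 cell state lists, with 1 point per sgNT column and a value of 0 drawn at the foot. The 4 CD8 T cell markers and all proliferation genes lie above 10 CPM, and most markers of other cell types lie below the dashed line at 1 CPM, with Ighm and Trdc as the highest exceptions.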

How the data were processed

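From stranded messenger RNA libraries, the authors aligned paired reads to GRCm39 (STAR 2.7.10b) and counted reads on the reverse strand anywhere in a gene body, intron or exon (featureCounts 2.0.1, R 4.3.3). The annotation release and the handling of multi-mapping reads are not given in the sources used here. Raw counts were deposited with the 2 mice of each group and experiment summed, and the authors tested groups with DESeq2 1.42.0. All 4 columns were mapped to groups by the labels (0 left over).

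The sgNT columns were scaled to CPM of the column total. At 63623476 and 49068952 counts, 3 counts correspond to 0.0472 and 0.0611 CPM. Exon lengths, biotypes and transcripts came from GENCODE M21 (GRCm38), which gave a length for 96.2% of on genes, and promoters from RefSeq (GRCm38.p6). No coordinates were carried over from GRCm39. The on and off calls were tested on simulated counts of genes set well below or above the threshold. The window, CpG and motif measures were tested on made sequences. Genes near the threshold, orders per kb and variation between mice were not simulated. Python 3.11.15, pandas 2.3.3 and edgeR 4.0.16 (TMM factors) were used.

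Because each column sums its mice, no test between samples was made, and the comparison of proteins within families was replaced by shared transcript windows, as no protein table was used here. The gene families, marker lists and symbol classes were chosen with earlier results of these data known. The text names the markers, the 20 genes with the highest mean CPM, up to 4 on and 2 off members of a family and up to 4 high and 2 low members of a list. Any further genes were picked with their values in view. 1 listed gene, Tbxt, has no row in the table, and some genes that this rule names are not reported here. Alternatives were thresholds of 0.5, 2 and 5 CPM, TMM scaling, a total without mitochondrial genes, CPM per kb and each column alone. The windows, gene overlaps, TATA position and symbol classes were added after seeing the data.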

Additional observations from a re-analysis of the deposited data

How the results depend on the processing

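No paired analysis was possible because each deposited column sums the mice that carry the replicate numbers. The number of genes on (11701) ran from 9348 at 5 CPM to 12868 at 0.5 CPM, and the number of family members on (343) from 286 to 361 over all alternatives. The number of families with a single member on (17) was 31 at 5 CPM and 29 at 1 CPM per kb. The number of markers of other cell types on (14) was 9 at 5 CPM and 8 at 1 CPM per kb. With 1 column used alone, genes on numbered 12073 to 12358, family members 349 to 358, single-member families 15 to 17 and other markers 15 to 16. TMM scaling left all 4 of these counts at their values. Without mitochondrial genes the top 20 genes held 9.81% (in place of 14.5%) and 9.53% (in place of 16.6%) of the counts. Mitochondrial genes held 7.73% and 10.2%, and 6.82% and 9.59% without those for ribosomal and transfer RNA. With classes by CPM per kb, the median promoter CpG ratio was 0.511 (in place of 0.447) for genes off with counts and 0.804 (in place of 0.832) for the highest class. The 2 columns carry no spread between mice, so differences within the range of the columns were not called.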
